A study of Rattus norvegicus with 6 samples.

Results

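The miR-25, miR-92 and miR-363 family is the group of microRNAs whose guide strand carries the seed AUUGCAC at bases 2 to 8. Its members in rat are miR-25, miR-32, miR-92a, miR-92b and miR-363. They were chosen by hairpin name (rno-mir-25, rno-mir-32, rno-mir-92a, rno-mir-92b and rno-mir-363), with copies of a hairpin joined, and their reads were summed per arm, the 5p or 3p strand of the hairpin. All 5 members had counts, from 6 hairpins and on 9 of the 932 mature arms in the data. The libraries were made from RSC96, a single established line of rat Schwann cells, which ensheathe axons outside the brain and spinal cord. High glucose (48 h, 3 libraries) was set against low glucose (48 h, 3 libraries), which the labels call the control. The labels give no glucose concentration, and they do not say whether the RNA came from vesicles or from cells. The series title names exosomes, the source is given as nerve and the extraction text names retina.

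MicroRNAs lead Argonaute proteins to messenger RNAs mainly through the seed, so members with the same seed can bind many of the same sites. The family is spread over several clusters of miRNA genes. miR-25 is made together with miR-93 and miR-106b from within the gene for the replication factor Mcm7. miR-92a comes from a pair of hairpins, in the growth-linked cluster of miR-17 and in its X-linked copy, where miR-363 also lies. miR-32 lies within Tmem245, and miR-92b stands alone and is best known from neural progenitor cells. In other tissues miR-92a is known as a brake on blood vessel growth and miR-25 as a regulator of cell survival.

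The mature sequences that define the family are shown first, because the shared seed and the bases around it decide which reads belong to which member. They are RefSeq sequences of the GRCr8 build, all 6 hairpins were found there with the same sequence as in the data, and capitals mark bases 2 to 8.
miR-25-3p: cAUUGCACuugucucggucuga
miR-92a-3p: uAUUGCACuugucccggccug
miR-92b-3p: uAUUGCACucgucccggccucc
miR-363-3p: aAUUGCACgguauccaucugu
miR-32-5p: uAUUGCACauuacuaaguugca
In GRCr8 miR-25-3p lies on the minus strand at chr12:22156652-22156673, within the span of Mcm7. miR-92a-3p lies at chr15:98588602-98588622 on the plus strand in Mir92a1 and at chrX:137342945-137342965 on the minus strand in Mir92a2. miR-363-3p lies beside the second copy on the minus strand at chrX:137342788-137342808, miR-92b-3p at chr2:176931663-176931684 on the minus strand, and miR-32-5p at chr5:76391328-76391349 on the minus strand within the span of Tmem245. Counted from base 1 at the 5′ end over 21 bases, miR-92b-3p differs from miR-92a-3p at 2 bases (U10C and G21C) and miR-25-3p at 3 (U1C, C14U and C18U). miR-32-5p differs from it at 10 bases and miR-363-3p at 11. In miR-32 the seed lies on the 5p arm and in the other members on the 3p arm. No sequence listed for these hairpins was listed under any other miRNA, and no sequence with AUUGCAC at bases 2 to 8 was listed outside the family.

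Total counts were 963706, 1278405 and 1354456 in high glucose replicates 1 to 3, against 123716, 148143 and 114615 in low glucose replicates 1 to 3. The family took 0.472%, 0.463% and 0.561% of all counts in high glucose replicates 1 to 3, against 0.304%, 0.264% and 0.297% in low glucose replicates 1 to 3. The groups did not overlap, but a share of all counts is itself a scaling by total counts and depends on what else fills the library. Scaled by total counts, the summed seed-bearing arms had a mean log2 difference of 0.78, against 0.33 with upper quartile scaling. A sequence is listed only with 2 or more reads, so rare sequences are more easily missed in the shallower low glucose libraries. The labels do not say that the replicates are separate cultures, and the p-values therefore cover only the spread among these 6 libraries, which may be technical. In such bulk RNA, fewer cells of a kind and less of a miRNA per cell cannot be told apart.

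In high glucose miR-25-3p, miR-92a-3p and miR-92b-3p were higher than in low glucose, and miR-363-3p did not pass the test. miR-92a-3p, whose cluster is linked to growth, was 3.91-fold higher and miR-25-3p 1.63-fold higher, the second a call lost with another scaling. miR-92b-3p was listed in every high glucose library and in no low glucose library. Of the 9 family arms, 4 had enough counts to be tested, and edgeR's quasi-likelihood test called 3 of them higher and 0 lower at an adjusted p of 0.05. One of the 3, miR-92b-3p, was at 0 throughout low glucose and passed the filter on low counts through its high glucose counts alone, as did 22 of the 123 arms called higher, so its call adds no support to the number. Over all 297 tested arms 41.4% were called higher and 22.6% lower, or 64.0% in either direction, and upper quartile scaling in place of TMM turned 123 higher and 67 lower arms into 91 and 93. The 3 called arms had every high glucose library above every low glucose library, as had 45.8% of all tested arms, while 25.9% had every high glucose library below.

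miR-25-3p was the most abundant member in every library. It had 3392, 3706 and 4858 CPM (counts scaled to a common library size, here by the TMM method) in high glucose replicates 1 to 3, against 2319, 2325 and 2687 CPM in low glucose replicates 1 to 3. Every high glucose library lay above every low glucose one, with the highest value in replicate 3. High glucose libraries averaged 3986 ± 772 CPM, against 2444 ± 210.7 CPM for low glucose (SD, n = 3 each). The log2 fold change was 0.71, with SE 0.18 and an edgeR adjusted p of 0.0108. Across all tested arms the log2 fold change had a median of 0.68, so miR-25-3p changed about as much as the middle arm of the data. With upper quartile scaling, which moved that median by -0.56, the log2 fold change of miR-25-3p was 0.13 (edgeR adjusted p = 0.573) and the call was lost. Its distance from the median was 0.02 with TMM scaling and 0.006 with upper quartile scaling.

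miR-92a-3p had 1043, 787 and 1132 CPM in high glucose replicates 1 to 3, against 251, 214 and 296 CPM in low glucose replicates 1 to 3. The lowest high glucose library was still well above the highest low glucose one. High glucose libraries averaged 987 ± 179.7 CPM, against 254 ± 40.6 CPM for low glucose (SD, n = 3 each). The log2 fold change was 1.97, with SE 0.24 and an edgeR adjusted p of 0.000354. The raw counts behind these values were 1008, 963 and 1384 in high glucose replicates 1 to 3, against 36, 32 and 33 in low glucose. With upper quartile scaling the log2 fold change was 1.38, which is 1.26 above the median of all arms under that scaling, against 1.28 above it with TMM scaling.

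miR-92b-3p had 175, 357 and 175 counts in high glucose replicates 1 to 3, or 181, 292 and 143 CPM, and was listed at 0 in all 3 low glucose libraries (edgeR adjusted p = 0.00078). No fold is given: single reads were left out of the lists, so a value of 0 gives no lower limit. When each library was thinned to 114497 reads and the minimum of 2 reads was applied again, an average of 17.3, 28.4 and 12.8 counts of miR-92b-3p were left in high glucose replicates 1 to 3, against 0 in low glucose. In all, 22 of the tested arms were listed at 0 throughout low glucose, and all 22 were called higher. By mean high glucose CPM miR-92b-3p ranked 1 among these 22. All of them passed the filter on low counts through their high glucose counts alone, so neither their calls nor this rank adds support.

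miR-363-3p, from the X-linked cluster, had 53.8, 8.98 and 18.002 CPM in high glucose replicates 1 to 3, against 34.8, 53.6 and 62.7 CPM in low glucose replicates 1 to 3. High glucose replicates 2 and 3 lay below all low glucose libraries, while high glucose replicate 1 lay among them. The log2 fold change was -0.90 (SE 0.74, edgeR adjusted p = 0.321). Behind it stood 52, 11 and 22 counts in high glucose replicates 1 to 3, against only 5, 8 and 7 in low glucose. miR-32-5p was listed with 2 counts, in low glucose replicate 1 alone, and miR-32-3p had no listed count.

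**Figure D1:**
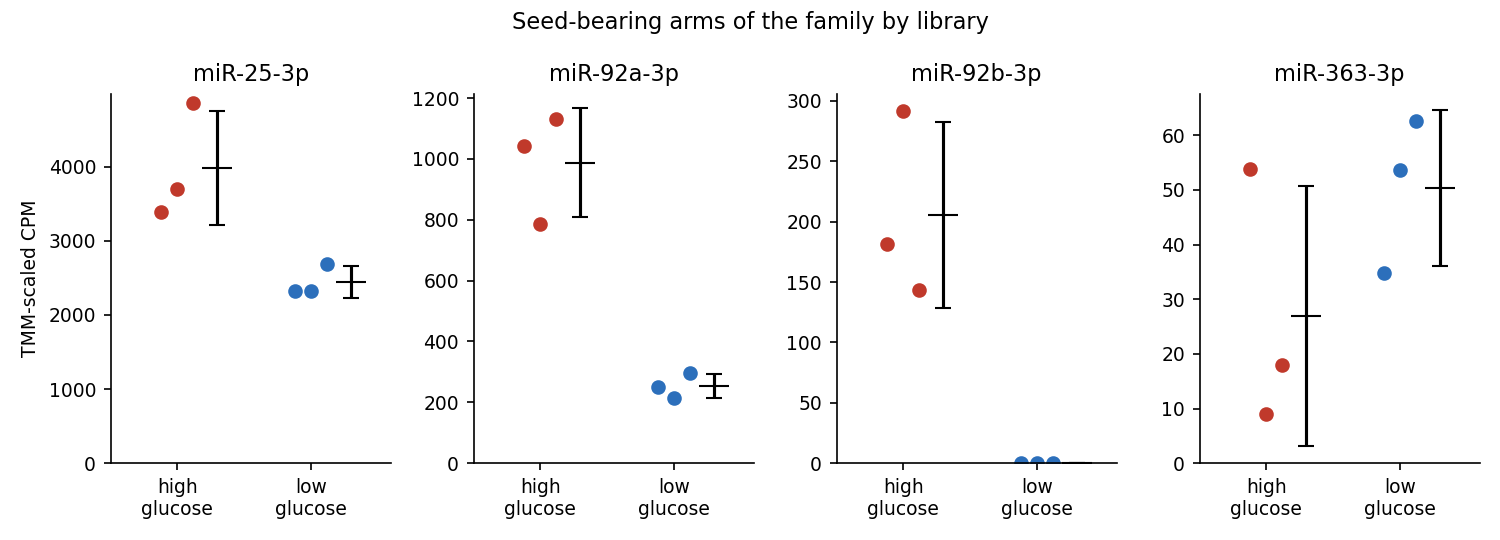
TMM-scaled CPM (vertical axis, from 0, a scale of its own in each panel) of miR-25-3p, miR-92a-3p, miR-92b-3p and miR-363-3p in the 3 high glucose libraries (red) and 3 low glucose libraries (blue), with the mean and SD beside them in black. The groups are apart for miR-25-3p, miR-92a-3p and miR-92b-3p, which is at 0 in all 3 low glucose libraries, and overlap for miR-363-3p, where high glucose replicate 1 stands at 53.8 CPM.

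The make-up of the family was set side by side as shares, in a design where no exact test can pass 0.05. Shares of the summed counts of the 5 seed-bearing arms do not depend on scaling. miR-25-3p made up 72.6%, 77.3% and 79.0% of these counts in high glucose replicates 1 to 3, against 88.6%, 89.7% and 88.2% in low glucose replicates 1 to 3. miR-92a-3p made up 22.3%, 16.4% and 18.4% in high glucose, against 9.57%, 8.27% and 9.71% in low glucose. The high glucose libraries thus held a smaller part of miR-25-3p and a larger part of miR-92a-3p, with no overlap. miR-92b-3p made up 4.10% ± 1.89 (SD, n = 3) of them in high glucose, against 0% in low glucose. miR-363-3p made up 1.15%, 0.187% and 0.293% in high glucose, against 1.33%, 2.07% and 2.06% in low glucose, and high glucose replicate 1 lay close to the lowest low glucose library. The exact two-sided permutation test gave p = 0.1 for each of these 4 shares, the smallest that 3 against 3 libraries can give, and 0.31 after Benjamini-Hochberg adjustment over the 31 shares compared. For miR-92b-3p this p follows from its listing at 0 throughout low glucose and adds no support. The shares are parts of 1 whole, so a rise in one lowers the others, and the 4 tests are not independent. With sequences without a mismatch alone the exact permutation p of the miR-363-3p share was 0.3.

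For each count of miR-25-3p there were 0.308, 0.212 and 0.233 counts of miR-92a-3p in high glucose replicates 1 to 3, against 0.108, 0.0922 and 0.11 in low glucose replicates 1 to 3. This ratio was higher in every high glucose library, by 1.26 on the log2 scale (exact permutation p = 0.1, and 0.129 adjusted over 9 ratios). The summed level of the 5 seed-bearing arms averaged 5205 ± 822 CPM for high glucose, against 2752 ± 254 CPM for low glucose (SD, n = 3 each), a ratio of 1.89. As a sum over chosen members it was not tested. With upper quartile scaling the mean log2 difference of this sum was 0.33, in place of 0.91 with TMM scaling.

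**Figure D2:**
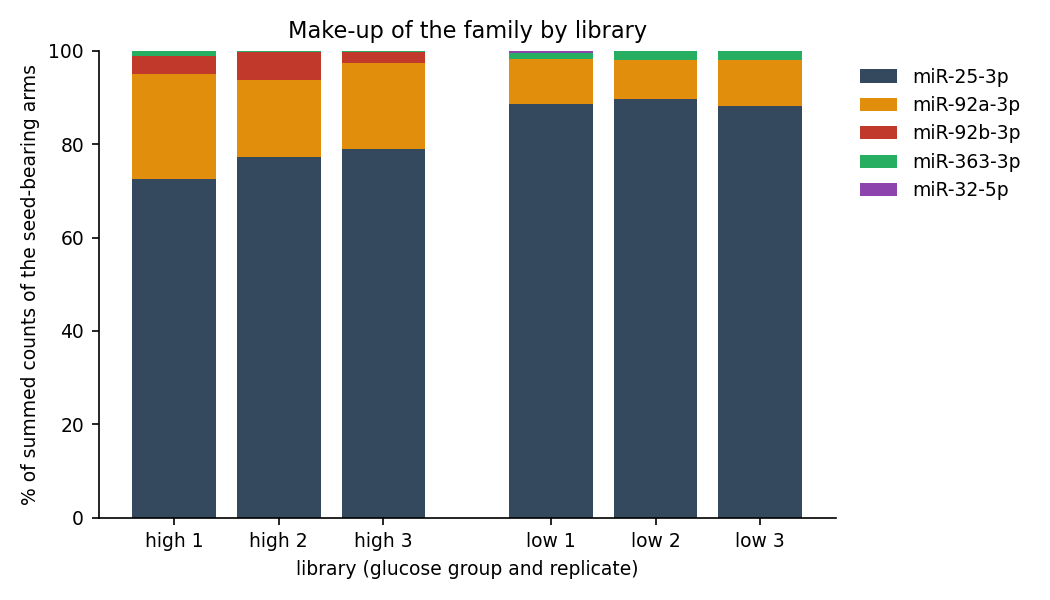
Percentage of the summed counts of the 5 seed-bearing arms (vertical axis, 0 to 100) taken by each arm in the 3 high glucose and the 3 low glucose libraries. miR-25-3p fills 72.6% to 79.0% of the bar in high glucose libraries and 88.2% to 89.7% in low glucose libraries, and miR-92b-3p appears in the high glucose bars alone.

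The remaining 5 family arms were too rare to be tested. Apart from miR-32-5p these were strands opposite the seed. miR-25-5p was listed with 2 counts, in low glucose replicate 2 alone, and miR-92a-5p with 21 counts, in high glucose replicate 2 alone. miR-92b-5p had 3, 11 and 83 counts in high glucose replicates 1 to 3 and 2 counts in low glucose replicate 2. In high glucose replicate 3 it made up 32.2% of the counts of its hairpin (exact 95% binomial interval 26.5% to 38.2%, counting error only), against 1.69% and 2.99% in replicates 1 and 2. Its mean of 26.7 CPM in high glucose became 6.04 CPM without replicate 3. miR-363-5p had 29, 12 and 0 counts in high glucose replicates 1 to 3 and none listed in low glucose, and 35.8%, 52.2% and 0% of the counts of its hairpin in high glucose replicates 1 to 3 (exact permutation p = 0.4 for the difference in this share from low glucose).

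The mature miR-92a-3p sequence is the same in both hairpins, and the tables list a read under one or the other by the bases after it. These sequences from the data are named by the hairpin they are listed under, with capitals for the bases after the shared 21.
miR-92a-3p, listed under mir-92a-1: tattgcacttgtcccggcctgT
miR-92a-3p, listed under mir-92a-2: tattgcacttgtcccggcctgA
miR-92a-3p, listed under both: tattgcacttgtcccggcctgC
miR-92a-3p, listed under mir-92a-1 with added bases: tattgcacttgtcccggcctgTAT
The sequence ending in T had 543, 515 and 611 counts in high glucose replicates 1 to 3, against 20, 28 and 13 in low glucose replicates 1 to 3. The sequence ending in A had 109, 118 and 304 counts in high glucose, against 4, 0 and 3 in low glucose. These are the bases that follow in each hairpin, but either can also be added to a read after cutting, so the listing does not by itself show which hairpin a read came from. The form ending in C had 74, 56 and 64 counts in high glucose, against 8, 0 and 0 in low glucose, and the form ending in TAT had 90, 97 and 64 in high glucose, against 0, 2 and 7 in low glucose. Of the counts listed under a single miR-92a hairpin, mir-92a-2 had 14.98%, 13.8% and 25.2% in high glucose replicates 1 to 3, against 14.3%, 0% and 9.09% in low glucose replicates 1 to 3. The groups overlapped (exact permutation p = 0.2), and with 28, 32 and 33 such counts in low glucose the exact 95% intervals reached up to 32.7%, 10.9% and 24.3%.

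The reads of miR-25-3p were deep enough to compare their ends. The main sequence and its variants are shown because they differ only in the first or last bases. Capitals mark the seed in the first pair of sequences and the last or added bases in the others.
miR-25-3p, main: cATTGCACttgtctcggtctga
miR-25-3p, start 1 base later: aTTGCACTtgtctcggtctga
miR-25-3p, last base missing: cattgcacttgtctcggtctG
miR-25-3p, last 2 bases missing: cattgcacttgtctcggtcT
miR-25-3p, T added: cattgcacttgtctcggtctgaT
miR-25-3p, A added: cattgcacttgtctcggtctgaA
miR-25-3p, AA added: cattgcacttgtctcggtctgaAA
The main sequence made up 74.3% ± 1.66 of miR-25-3p counts for high glucose, against 70.8% ± 3.20 for low glucose (SD, n = 3 each), with overlapping groups. The hairpin continues with C after the mature end, so a T or A added directly there is not copied from it. In the AA form only the first added A differs from the hairpin, and the second matches it.

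The shortened forms, which lack the last base or the last 2, made up 4.52%, 8.09% and 5.39% of miR-25-3p in high glucose replicates 1 to 3, against 13.5%, 16.7% and 11.3% in low glucose replicates 1 to 3. The form with an added T made up 8.45%, 7.14% and 7.56% in high glucose, against 3.604%, 4.90% and 6.33% in low glucose. For both measures the groups did not overlap: the shortened forms were lower and the added T higher in every high glucose library (exact permutation p = 0.1 each, 0.31 adjusted). With all libraries thinned to 1 depth in 1 random draw, the difference in high minus low glucose was -7.29 percentage points for the shortened forms and 3.09 for the added T, in place of -7.86 and 2.77. The forms with 1 or 2 added A made up 4.21% ± 2.19 for high glucose, against 5.15% ± 1.09 for low glucose (SD, n = 3 each), with overlapping groups.

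A start 1 base later moves the seed to TTGCACT and so changes which sites a miRNA can bind. This form made up 2.90%, 4.52% and 3.62% of miR-25-3p counts in high glucose replicates 1 to 3, against 1.80%, 2.02% and 2.33% in low glucose replicates 1 to 3. The groups did not overlap (exact permutation p = 0.1), but the difference of 1.63 percentage points became 0.12 in 1 random draw that thinned the libraries to 1 depth (exact permutation p = 1.0). Low glucose held only 6, 7 and 7 such counts, so 1 draw cannot tell depth from sampling error. The family seed stood at bases 2 to 8 in 95.6% ± 0.981 of miR-25-3p counts for high glucose, against 97.5% ± 1.02 for low glucose (SD, n = 3 each). A shifted start lowers this share as a changed seed base does. The groups overlapped, and the difference of -1.95 percentage points became -0.12 in the same draw of thinned libraries (exact permutation p = 0.5), with the same limit. For miR-92b-3p the seed stood at bases 2 to 8 in 100%, 100% and 92.6% of counts in the 3 high glucose libraries, and the rest started 1 base later.

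**Figure D3:**
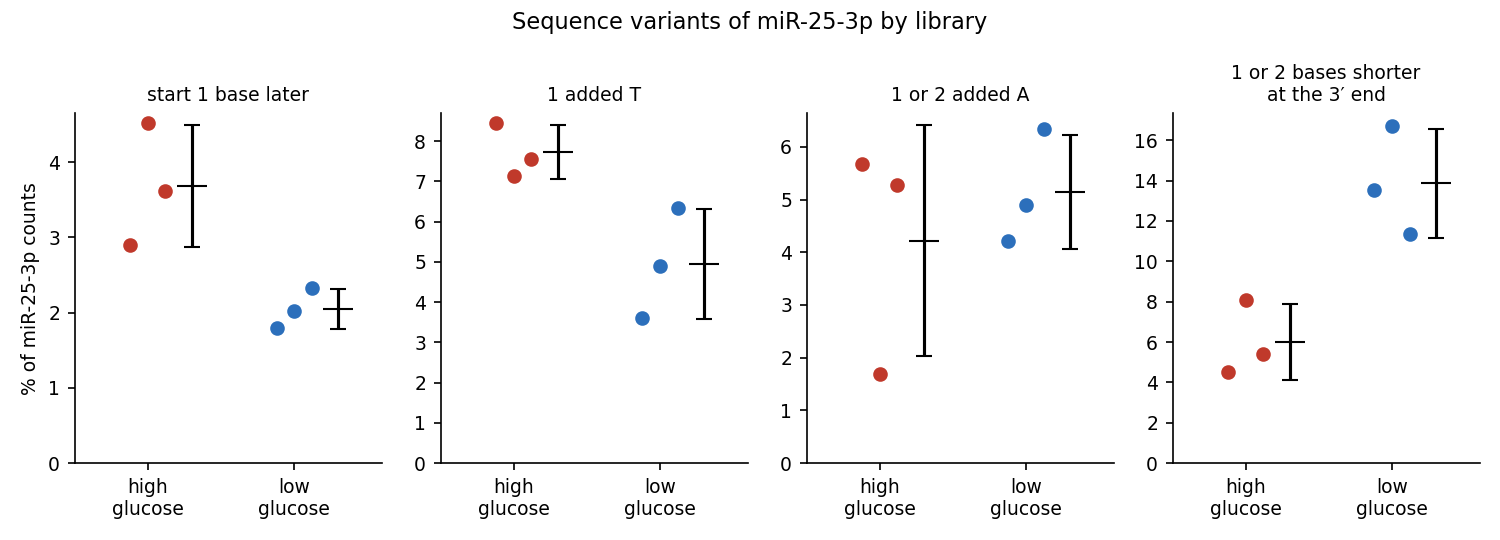
Percentage of miR-25-3p counts (vertical axis, from 0, a scale of its own in each panel) in 4 kinds of sequence variant, for the 3 high glucose libraries (red) and the 3 low glucose libraries (blue), with the mean and SD in black. The forms shortened at the 3′ end lie between 4.52% and 8.09% in high glucose and between 11.3% and 16.7% in low glucose, and the forms with 1 or 2 added A overlap between the groups.

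miR-92b-3p also had variants at its end, and these differed between replicates.
miR-92b-3p, main: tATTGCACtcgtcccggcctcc
miR-92b-3p, A at the end: tattgcactcgtcccggcctcA
miR-92b-3p, T at the end: tattgcactcgtcccggcctcT
The main form, whose seed is in capitals, had 77, 207 and 83 counts in high glucose replicates 1 to 3. The form ending in A had 22, 79 and 4 counts, and the form ending in T had 13, 18 and 52. Replicate 2 thus held most of the A form and replicate 3 most of the T form. A mismatch or indel at base 22 or later was present in 30.5% ± 1.74 of miR-92b-3p counts in high glucose (SD, n = 3).

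The genes that lie in the same clusters as the family members went partly another way. Of 10 listed hairpins of the miR-17, miR-18, miR-19, miR-20, miR-93 and miR-106 kinds 8 had counts, and of their 7 tested arms 1 was called higher and 4 lower, against 41.4% and 22.6% of all tested arms. Their median log2 fold change was -1.29. In the Mcm7 cluster miR-106b-3p, the arm opposite its seed strand miR-106b-5p, was higher: 799 ± 56.8 CPM for high glucose, against 479.97 ± 3.94 CPM for low glucose (SD, n = 3 each), with a log2 change of 0.74 (edgeR adjusted p = 0.00752). Its call was lost with upper quartile scaling, at a log2 fold change of 0.15, and with thinned libraries. miR-106b-5p, a growth-promoting relative of miR-17, was lower: 59.5 ± 18.8 CPM for high glucose, against 169 ± 41.4 CPM for low glucose (SD, n = 3 each), with a log2 change of -1.52 (edgeR adjusted p = 0.00659). It missed the threshold once low glucose replicate 2 was left out, and with the counts of its top sequence alone. miR-17-5p was also lower, with a log2 change of -1.29 (edgeR adjusted p = 0.00756). It too missed the threshold in these 2 settings, and with the top sequence alone its direction turned. miR-19a-3p had a log2 change of -0.13 (edgeR adjusted p = 0.889). miR-93-5p had a log2 change of -0.55 (edgeR adjusted p = 0.0902), and with upper quartile scaling -1.14 (edgeR adjusted p = 0.00444).

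Ratios of raw counts within a library show this without scaling. There were 25.6, 34.1 and 40.4 counts of miR-25-3p for each count of miR-93-5p in high glucose replicates 1 to 3, against 15.9, 12.4 and 13.6 in low glucose replicates 1 to 3. The ratio of miR-25-3p to miR-106b-3p overlapped, at 5.04 ± 1.34 for high glucose, against 5.09 ± 0.405 for low glucose (SD, n = 3 each, exact permutation p = 1.0). In the other cluster there were 3.33, 3.03 and 5.18 counts of miR-92a-3p for each count of miR-20a-5p in high glucose, against 0.271, 0.157 and 0.28 in low glucose. miR-92a-3p was thus the more abundant of the pair in every high glucose library and the less abundant in every low glucose library. miR-20a-5p itself was lower in high glucose, with a log2 change of -2.08 (edgeR adjusted p = 0.000274), and so was miR-19b-3p, with -3.17 (edgeR adjusted p = 0.000654). Of the 9 ratios, 7 had groups without overlap and an exact permutation p = 0.1, or 0.129 adjusted. The 9 include ratios within the family, of miR-92a-3p and of miR-363-3p to miR-25-3p, and the first of these is among the 7. Single arms were often apart too: 45.8% of all tested arms had every high glucose library above and 25.9% every one below. No such share was computed for ratios.

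**Figure D4:**
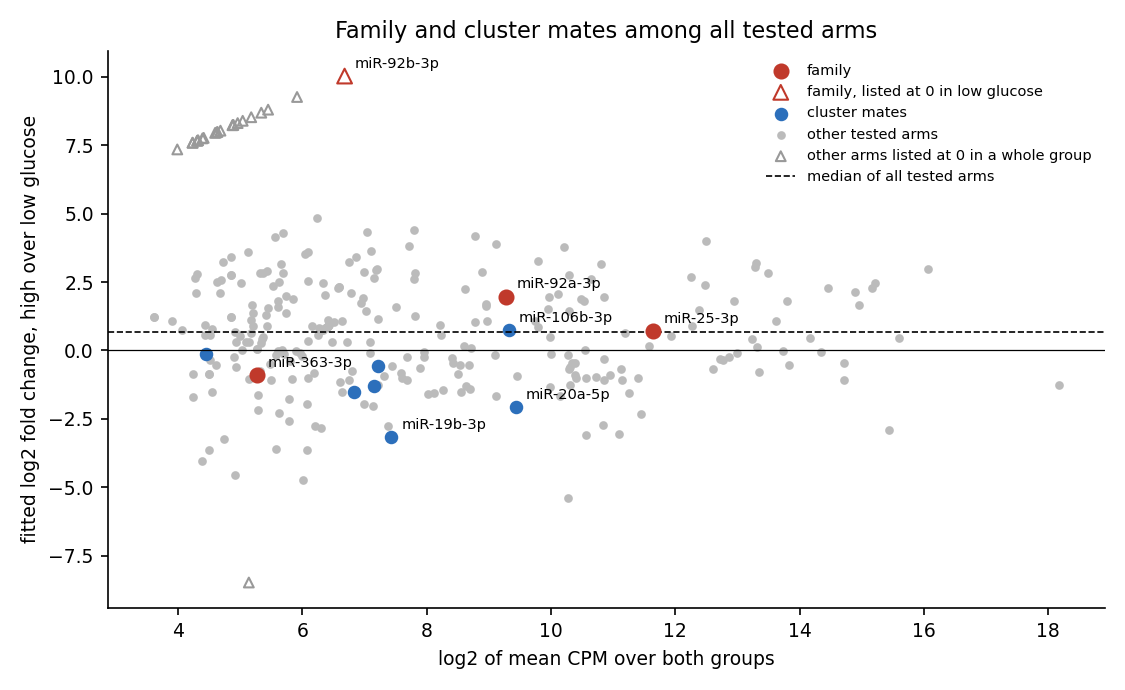
Fitted log2 fold change, high over low glucose (vertical axis), against the log2 of the mean CPM over both groups (horizontal axis) for the 297 tested arms, with the family in red, cluster mates in blue and arms listed at 0 in a whole group as open triangles, whose height is set by the value fitted for a listed 0. miR-25-3p lies on the dashed median of all arms at 0.68, miR-92a-3p above it at 1.97, and 6 of the 7 cluster mates below 0.

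The arms with profiles most like those of the family were found by the root mean square distance of centred log2 CPM over the 6 libraries, among the tested annotated arms outside the family. Closest to miR-25-3p were miR-27a-3p, miR-224-5p and miR-99a-5p, at 0.11, 0.14 and 0.19 log2 units, where the median arm was at 0.94. The log2 changes of miR-224-5p and miR-99a-5p, 0.55 and 0.44, turned to -0.03 and -0.14 with upper quartile scaling. Closest to miR-92a-3p were miR-361-3p, let-7d-5p and miR-28-3p, at 0.08, 0.12 and 0.17, where the median arm was at 1.22. Closest to miR-92b-3p were miR-129-5p, miR-872-3p and miR-543-3p, at 0.40, 0.60 and 0.93, and these 3 were likewise listed at 0 in low glucose. miR-25-3p stood 0.65 from miR-92a-3p, nearer than the median arm of either, with 39 arms closer to miR-92a-3p and 58 closer to miR-25-3p. On few counts, miR-363-3p stood 1.17 from miR-25-3p and 1.64 from miR-92a-3p, farther than the median arm of each. miR-92b-3p stood 2.08 from miR-92a-3p, with 50 arms closer to miR-92b-3p, whose median arm was at 2.93, and 181 closer to miR-92a-3p. In low glucose the profile of miR-92b-3p holds only the floor value given to a listed 0. Its nearness to other arms at 0 there was thus fixed in advance, and its distances and ranks add no support.

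Base composition, depth and the summed levels of several lists of cell type miRNAs, among them the erythroid list, moved with these results. Depth was checked only by thinning the libraries, and the part of the others was not tested. The share of G and C in the main sequence was 63.6% for miR-92b-3p, 54.5% for miR-92a-3p, 50% for miR-25-3p and 40.9% for miR-363-3p. Of the tested annotated arms with 60% G and C or more, 17 of 23 were called higher, of those from 50% to under 60% 25 of 57, from 40% to under 50% 25 of 81, and under 40% 10 of 37. The median log2 fold changes of these 4 classes were 2.29, 0.78, -0.17 and -0.08. The erythroid list (miR-451, miR-486, miR-144 and miR-16, all 4 with counts) summed to 925 to 1054 CPM in high glucose libraries, against 3753 to 6655 CPM in low glucose libraries. All 3 of its tested arms, miR-451-5p, miR-486-5p and miR-16-5p, were lower, and miR-144 had too few counts to be tested. Of 5 hairpins linked to Schwann cells and glia, miR-338 and miR-138 had no listed count. The other 3 summed to 1496 to 1671 CPM in high glucose, against 1448 to 1630 CPM in low glucose, nearly all of it miR-9a-5p, with 0 of 2 tested arms called. The neuronal list (5 of 6 hairpins with counts, miR-124 with none) summed to 15380 to 21606 CPM in high glucose, against 5744 to 7953 CPM in low glucose, with 2 of 5 tested arms higher and 1 lower. Most of the high glucose sum was miR-128-3p, with a mean of 18246 CPM in high glucose, against 1992 CPM in low glucose. Most of the low glucose sum was miR-218a-5p, which went the other way, with a mean of 935 CPM in high glucose, against 4644 CPM in low glucose. The leukocyte list (5 of 5) summed to 1595 to 1901 CPM in high glucose, against 2054 to 2266 CPM in low glucose, with 0 of 4 called. The retinal list (4 of 5, miR-96 with none) summed to 457 to 629 CPM in high glucose, against 3468 to 4881 CPM in low glucose, with 2 of 2 lower. miR-184-3p made up most of this sum, with a mean of 473 CPM in high glucose, against 3901 CPM in low glucose. The untested miR-211-5p and miR-182-3p went the other way, at 38.7 and 20.7 CPM in high glucose, against 4.64 and 5.97 CPM in low glucose. The liver list (3 of 3) summed to 9192 to 15590 CPM in high glucose, against 3197 to 4693 CPM in low glucose, with 2 of 2 higher. Most of it was miR-122-5p, with a mean of 12202 CPM in high glucose, against 3510 CPM in low glucose. On few counts, the untested miR-194-5p went the other way, at 3.16 CPM in high glucose, against 11.9 CPM in low glucose.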

How the data were processed

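Small RNA was sequenced from 3 high glucose and 3 low glucose libraries of RSC96 cells. The tables deposited by the authors give raw counts for every distinct sequence and the hairpin it matched, per the file headers. cutadapt 1.9.3 and Novoalign 3.02.12 are named, per the submitters' processing notes, with no role stated; genome build and hairpin release: not given in the sources used here. Where 1 sequence matched several hairpins its reads had been split evenly and rounded, which held in all 26289 entries, and no entry was below 2. Here, counts were summed per arm, taken from whether the sequence's centre lay before or after the middle of the hairpin. All arms entered edgeR 4.0.16 in R 4.3.3 (quasi-likelihood test, TMM, filterByExpr with a minimum count of 10, Benjamini-Hochberg threshold 0.05, prior count 2 for log2 CPM), after the script had been tested on simulated data. SE is the size of the log2 fold change over the root of F. Exact permutation tests used SciPy 1.17.1 under Python 3.11.15. Alternatives were other scalings and filters, DESeq2 1.42.0, limma 3.58.1, a replicate block, thinning (20 draws for mean counts, 1 for tests), fewer sequences or hairpins, and leaving out each library. The members and lists were chosen with earlier results of these data known. Named were all family arms with a count, their cluster mates, and the 3 nearest profiles of each tested member averaging at least 50 counts in either condition. Binomial intervals cover counting error only, as the reads carry no molecular identifiers.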

Additional observations from a re-analysis of the deposited data

How the results depend on the processing

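The call of miR-92a-3p held, in the same direction, with the other scalings, filters and tests, with thinned counts, with fewer sequences or hairpins, with shared arms joined and without each library in turn. That of miR-25-3p held under these too, except with upper quartile scaling, where its log2 fold change was 0.13. miR-92b-3p was called in each of them as well, which says nothing of stability, since it is at 0 in every low glucose library. Without each library in turn the log2 fold change ranged from 0.52 to 0.83 for miR-25-3p, from 1.83 to 2.06 for miR-92a-3p and, where it could be tested, from -1.04 to -0.69 for miR-363-3p, and the adjusted p of miR-92b-3p from 0.000458 to 0.00438. miR-363-3p had too few counts to be tested with thinned libraries or without any single high glucose library. Over all 297 tested arms 123 were higher and 67 lower, and several settings tested other numbers of arms. The higher count was 64 of 161 tested arms with thinned libraries and 78 of 201 with annotated hairpins alone. The lower count was 40 of 236 when only the most abundant sequence of each arm was counted. Without each library in turn 203 to 393 arms were tested. The higher count then ranged from 79 (without high glucose replicate 2) to 117, and the lower count from 41 (without low glucose replicate 2) to 59. The summed level of the family, at a mean log2 difference of 0.91, was at 0.33 with upper quartile scaling. The share of miR-25-3p with added A, high minus low glucose, ranged from -1.66 to 0.33 percentage points, turning positive without high glucose replicate 2. Same-numbered libraries did not deviate together, with correlations of 0.045, -0.00071 and -0.028. With a replicate block 104 arms were higher and 58 lower, the family again had 3 higher and 0 lower, and the log2 fold changes were 0.69 for miR-25-3p, 1.96 for miR-92a-3p and -1.25 for miR-363-3p. The mean of miR-92b-5p without high glucose replicate 3 was added after seeing the data. The low glucose values rest on fewer counts than the high glucose values.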
